A study of Mus musculus with 18 samples.

Results

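The single most abundant feature of these small RNA libraries was a fragment pool of 18S ribosomal RNA, counted at the transcript ENSMUST00000240377, which the GENCODE vM39 annotation names Rn18s-rs5-201 and types as rRNA. The row was chosen by its summed read count, the highest of 203513 features, so its overall rank and its level are given as a description and were not tested. It collected 1320944 reads over 18 libraries, which is 2.38% of all counted reads. The transcript lies at chr17:40157244-40159092 on the plus strand of GRCm39 (mm39), has 1 exon of 1849 bases and a GC content of 55.4%, and the deposited table itself gives it no name.

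The libraries were made from brain cells of mice aged 10 months on a C57BL/6 background. WT animals carried the normal Atxn2 gene, and KIN animals were homozygous for Atxn2-CAG100-KIN, an expanded CAG repeat knocked into Atxn2 that models spinocerebellar ataxia type 2. Brains were dissociated, and magnetic beads removed microglia by CD11b and then astrocytes by ACSA-2, while the fraction labelled Neurons was what flowed through after antibodies against other cells, with CD31 beads for endothelium, had been applied. The 6 groups (3 fractions, 2 genotypes) held 3 libraries each, with totals of 1211118 to 4316748 counted reads, and the labels do not say whether a replicate number marks a brain. The 3 fractions were taken in sequence from single brains, so libraries of different fractions share animals and are not independent.

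18S rRNA is the RNA of the small ribosomal subunit, where it decodes the messenger RNA. RNA polymerase I copies it from tandem ribosomal DNA repeats as part of a long precursor. The snoRNA U3 is needed for cuts that turn the precursor into mature 18S, and other snoRNAs guide modifications of its nucleotides. Because the repeats are near-identical, a read counted at Rn18s-rs5 may come from any copy. In a library made from short RNA, reads at this row stand for pieces of 18S, whether cut in the cell or broken during preparation, and the length of the pieces is not in the table.

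Some pieces of 18S were counted elsewhere, because the authors matched reads to piRNA entries before they matched them to Ensembl transcripts. Of 47107 piRNA entries whose sequence the table gives, 12 lie whole and without mismatch in the 18S transcript, all 12 on the sense strand, and none of the 1978 miRNAs with a sequence does. The entries are shown because each is a piece of 18S under another name, and together they cover 204 bases in 7 separate stretches. Positions are counted from 1 at the 5′ end of the transcript, sequences are written 5′ to 3′, and capitals mark bases that lie in more than 1 of the 12 entries.
mmu-piR-68453, bases 67 to 94: cacggccggtacagtgaaactgcgaatg
mmu-piR-68019, bases 286 to 312: CGGCGGCTTTGGTGACTCTAGATAACC
mmu-piR-55180, bases 295 to 323: TGGTGACTCTAGATAACCTCGGGCCGATc
mmu-piR-68208, bases 397 to 422: ccatggTGACCACGGGTGACGGGGAA
mmu-piR-63116, bases 403 to 427: TGACCACGGGTGACGGGGAAtcagg
mmu-piR-57305, bases 851 to 877: tggataccgcagctaggaataatggaa
mmu-piR-68887, bases 1260 to 1286: acgggaaacctcacccggcccggacac
mmu-piR-68140, bases 1707 to 1732: ccgcccgtcgctactaccgattggat
mmu-piR-67196, bases 1823 to 1849: gtaggtgaacctgcggaaggatcatta
The last of these, mmu-piR-67196, ends on the final base of the 18S transcript, at chr17:40159066-40159092. The other 3 entries, mmu-piR-68020, mmu-piR-55182 and mmu-piR-55181, are shorter forms of entries shown and held 46, 72 and 156 reads.

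**Figure D1:**
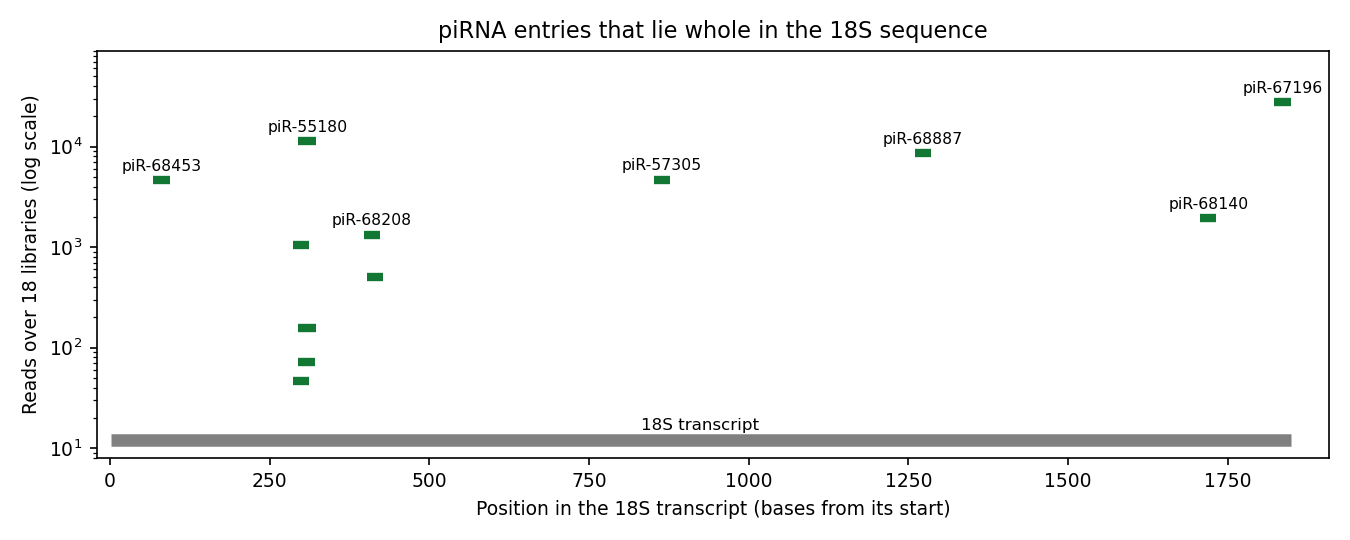
Reads over all 18 libraries (log scale) of each piRNA entry that lies whole in 18S, drawn from its first to its last base in the 1849-base transcript. The entry at the 3′ end, piR-67196, holds the most with 27695 reads, and the stretch from base 286 to base 323 holds 5 entries.

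The 12 entries held 61994 reads in all, against 1320944 at the 18S row itself. Most of them sat in a few entries: mmu-piR-67196 held 27695 reads, mmu-piR-55180 11276, mmu-piR-68887 8567, mmu-piR-57305 4698 and mmu-piR-68453 4643. A further entry, mmu-piR-68566, matched bases 1033 to 1062 with 1 mismatch and held 20570 reads. For 7758 piRNA entries no sequence was given, and they could not be compared.

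Among Ensembl transcripts, 5 shared 20 or more bases in a row with 18S. Arfgef1-201 and Arfgef1-203 shared 22 bases and had 40 and 15 reads. Ncl-204, Mir3535-201 and Gm55462-201 overlap each other on the minus strand of chromosome 1, in the gene of nucleolin, a nucleolar protein of ribosome production. They carried 201211, 105811 and 103307 reads, and their shared stretch is shown because it is complementary to 18S rather than a piece of it.
Gm55462-201, snoRNA: ttcctctagatagtcaagttc
18S, bases 1779 to 1799: gaacttgactatctagaggaa
Counting did not use the strand, so a read that holds only these bases cannot be assigned to 18S or to the other transcripts.

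The 18S row ranked at the top in 17 of 18 libraries. The exception was replicate 2 of KIN microglia, where Yipf1-208 held 81991 reads against 78841. Next in total reads, just outside the choice, came Rpl13-202 with 726826, Snord68-201 with 723606, Yipf1-208 with 646801, Hspa8-208 with 561300 and mmu-piR-68681 with 475997. Snord68 lies in an intron of Rpl13, a gene of a large-subunit ribosomal protein, and the near-equal pair of counts cannot be told apart. These are read counts and not levels per length.

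Several measures of the libraries moved with the groups and bear on a share. The labels were checked against marker miRNAs, in CPM (reads of a feature scaled to a fixed library total). The 3 microglial markers (miR-142a-3p, miR-142a-5p, miR-223-3p) summed to 2835 to 5914 CPM in microglia and to at most 377 CPM elsewhere. The 3 neuronal markers (miR-124-3p, miR-128-3p, miR-138-5p) summed to 48.7 to 228 CPM in the fraction labelled Neurons and to 1036 to 3150 CPM in astrocytes, so the label is not borne out by these markers and the fraction is called the neuron fraction here only after its label. The 3 erythroid markers, led by miR-451a, summed to 66.8 to 303 CPM in the WT neuron fraction and to at most 131 CPM in any other group. Mature miRNAs took 5.05 to 8.30% of reads in WT and 8.43 to 10.3% in KIN astrocytes, 5.09 to 5.99% and 5.86 to 8.45% in microglia, and 0.964 to 1.93% and 1.33 to 2.13% in the neuron fraction. Replicate 1 of KIN had 4 or 5 Xist reads in each fraction and replicates 2 and 3 had 44 to 88. The KIN libraries were thus not alike in sex-linked RNA. Reads of Y-linked genes were 7 to 15 in replicate 1 of KIN and 2 to 6 in replicates 2 and 3. In WT they were 1 to 8 in replicate 2 and 10 to 26 in replicates 1 and 3. The authors report same-sex littermate pairs of KIN and WT, with both sexes among them. The labels name neither sex nor pair. Within a genotype, low Y reads marked replicates 2 and 3 of KIN but only replicate 2 of WT. If low Y reads mark a female, the KIN libraries differ from the reported 1 female pair. The compared genotypes may thus differ in sex, which was not tested.

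Markers of other cells also differed between genotypes in part. Of 6 marker lists, the summed levels of WT and KIN did not overlap for 2 in astrocytes, 4 in microglia and 0 in the neuron fraction. Among all tested features every KIN share lay below every WT share for 25.9% in astrocytes, 18.5% in microglia and 5.47% in the neuron fraction. The share of features with KIN above WT was not computed. In astrocytes the microglial list summed to 10.2 to 12.6 CPM in WT and 25 to 48.5 in KIN, and the oligodendrocyte list to 830 to 1496 in WT and 1510 to 2148 in KIN. Fragments of the astrocyte transcripts Slc6a11, Slc1a2 and Aqp4 were lower there in every KIN library than in every WT one, as were 25.9% of tested features. Slc6a11, a GABA transporter, had 46.5 to 58.9 CPM in WT and 6.13 to 9.89 in KIN. Slc1a2, a glutamate transporter, had 135 to 148 and 38.2 to 46.2, and Aqp4 had 18.1 to 23.1 and 8.92 to 10.8. The other members of the astrocyte list, Gfap, miR-9-5p and miR-9-3p, overlapped between genotypes. Gfap had 4.02 to 5.77 CPM in WT and 2.96 to 4.94 in KIN, and the list sum 6059 to 9700 and 6986 to 7392. In microglia the astrocyte list summed to 84.9 to 249 CPM in WT and 60.4 to 69.7 in KIN, the neuronal list to 60.7 to 159 and 47.0 to 55.1, the oligodendrocyte list to 19.3 to 21.5 and 22.6 to 32.7, and the erythroid list to 17.3 to 22.2 and 28.6 to 131. In the neuron fraction no read of Slc6a11 or Gfap was counted, while Slc1a2 had at most 2.89 CPM and Aqp4 at most 1.02. There miR-9-5p had 519 to 1635 CPM in WT and 1668 to 3052 in KIN. miR-9-3p, at 444 to 631 and 585 to 1027, and the astrocyte list sum, at 964 to 2268 and 2256 to 4081, overlapped. The part of these differences in the results was not tested.

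Raw reads at the 18S row ranged from 47470 to 118716. In astrocytes the WT libraries (replicates 1, 2 and 3) had 58648, 61411 and 61973 reads, and the KIN libraries had 49240, 47980 and 47470. In microglia the WT libraries had 117273, 68449 and 118716 reads, and the KIN libraries had 49740, 78841 and 81687. In the neuron fraction the WT libraries had 60436, 79056 and 73393 reads, and the KIN libraries had 84909, 92560 and 89162. The KIN neuron libraries thus had more 18S reads than the WT ones, but they were also deeper, with totals of 2343693 to 2427384 against 1211118 to 1956491.

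As a share of the library, 18S was highest in the neuron fraction. The WT neuron libraries held 4.99, 4.04 and 4.80% of their reads at the 18S row (mean 4.61% ± 0.50 SD, n = 3), and the KIN ones held 3.62, 3.81 and 3.68% (3.70% ± 0.10). The WT microglial libraries held 3.38, 1.97 and 3.24% (2.86% ± 0.77), and the KIN ones held 1.58, 1.83 and 1.90% (1.77% ± 0.17). The WT astrocyte libraries held 1.87, 1.54 and 1.88% (1.76% ± 0.19), and the KIN ones held 1.43, 1.34 and 1.28% (1.35% ± 0.08). In that order of group means, only KIN microglia and WT astrocytes overlapped, and every other neighbouring pair was apart in all libraries. Each share is precise as a count, with 95% Wilson intervals such as 4.95 to 5.03% in replicate 1 of WT neurons and 1.26 to 1.29% in replicate 3 of KIN astrocytes, so the spread between libraries is far wider than the counting error.

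**Figure D2:**
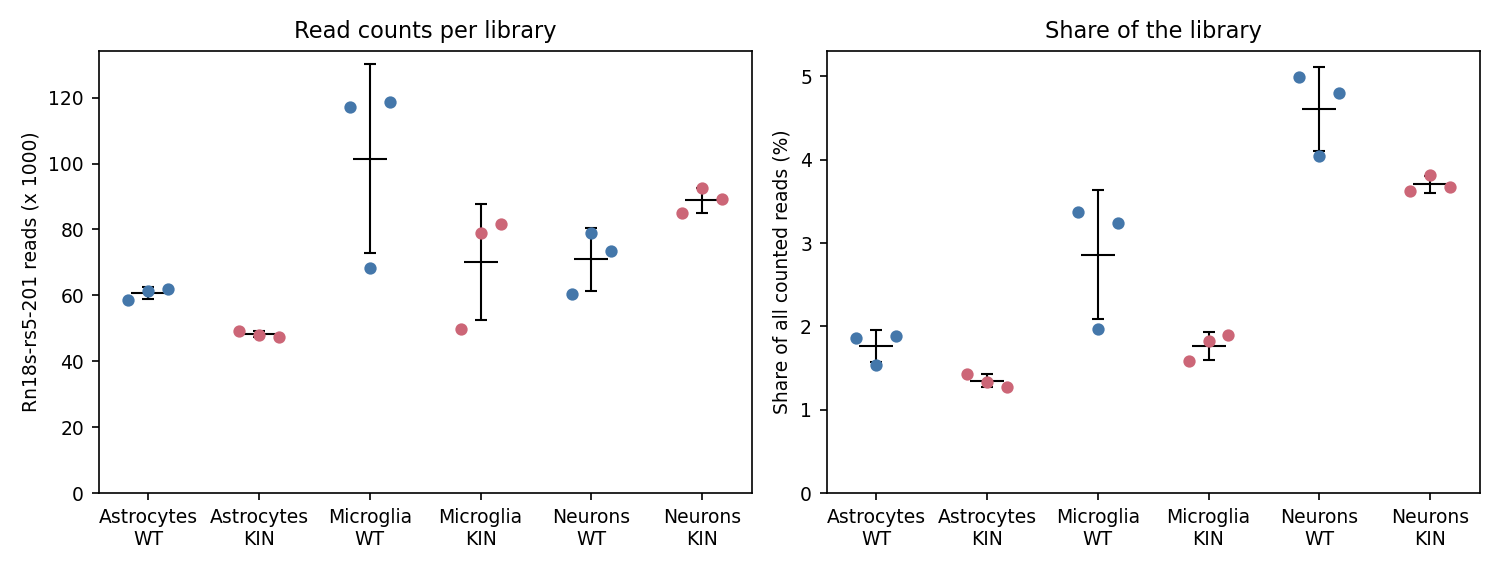
Reads at the 18S row, in units of 1000 reads (left), and as percent of all counted reads (right) for each library, with the mean and SD of the 3 libraries of a group. In the right panel the KIN points lie below the WT points in each fraction, and the lowest WT point of each fraction is replicate 2.

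The KIN comparison asks whether the ataxin-2 expansion goes with a different amount of 18S pieces in each cell fraction. In all 3 fractions every KIN share lay below every WT share. The KIN mean was 0.765 of the WT mean in astrocytes, 0.618 in microglia and 0.803 in the neuron fraction, which are differences of -0.41, -1.09 and -0.91 percentage points. An exact two-sided permutation test gave p = 0.1 in each fraction, which is the smallest value that 3 against 3 allows, and 0.1 after adjustment over the 3 fractions. A KIN share below every WT share was found for 25.9% of tested features in astrocytes, 18.5% in microglia and 5.47% in the neuron fraction. Of 3145 features tested in all 3 fractions, 20 (0.636%) had this pattern in each of them, and the 18S row was among them, but the fractions share brains, so they are not 3 independent comparisons. Fewer cells of a kind within a fraction, less 18S per cell and a different breakage of 18S cannot be told apart in such bulk samples. The authors counted more viable microglia and astrocytes from KIN brains than from WT brains, and saw no difference for neurons. The libraries were made from equal amounts of RNA.

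In the model over all features the KIN differences of the 18S row did not pass. edgeR's quasi-likelihood test gave a log2 fold change of -0.25 ± 0.08 (SE) in astrocytes with a Benjamini-Hochberg adjusted p of 0.0606, where 8.18% of 5694 features were called (adjusted p no higher than 0.05 and a log2 change of 1 or more in size). In microglia it gave -0.45 ± 0.18 with an adjusted p of 0.163, where 4.35% of 4940 features were called. In the neuron fraction it gave -0.32 ± 0.15 with an adjusted p of 0.917, where 0% of 4535 features were called by edgeR or by DESeq2 and 197 had an unadjusted p of at most 0.05. All 3 estimates were negative and their 95% intervals reached from -0.43 to -0.08, from -0.86 to -0.04 and from -0.65 to 0.01. The whole tables leaned the same way, with medians of -0.19, -0.11 and -0.11 over all tested features, so the 18S row lay 0.07 below the median in astrocytes, 0.34 below in microglia and 0.21 below in the neuron fraction. A change at least as large in size was found for 73.4%, 54.3% and 57.7% of features.

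**Figure D3:**
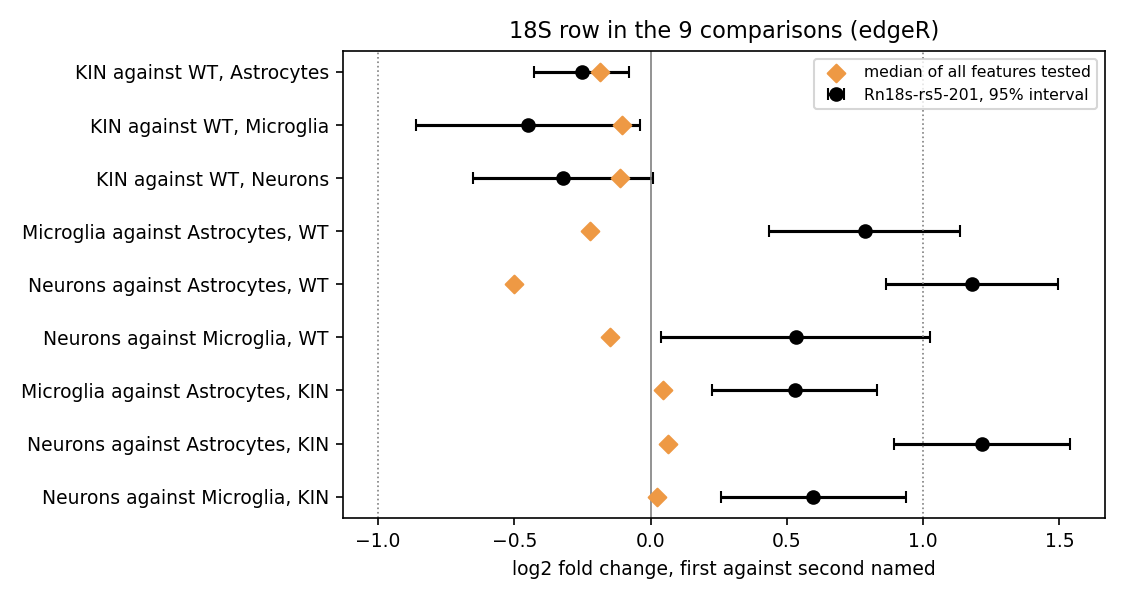
Log2 fold change of the 18S row with its 95% interval in the 9 comparisons (black) and the median of all features tested in each (orange). The 3 KIN comparisons lie between -0.45 and -0.25, and the dotted lines mark the size limit of 1, which only the 2 comparisons of neurons with astrocytes exceed.

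Replicate 2 of WT had the lowest share of the 3 WT libraries in each fraction and lay nearest to the KIN libraries. These libraries also had the highest miRNA share of the WT libraries in astrocytes (8.30%) and in the neuron fraction (1.93%), though the lowest in microglia (5.09%). They had 102, 36 and 50 Xist reads in astrocytes, microglia and the neuron fraction, against 25 to 33, 37 to 41 and 12 in the other WT libraries, and 8, 1 and 4 reads of the Y-linked genes Ddx3y, Eif2s3y, Kdm5d and Uty, against 18 to 26, 10 to 18 and 10. The part of this in the results was not tested. Replicate 2 of WT was picked by its low share, so leaving it out must widen the difference in share. The values without it are therefore a description and not a test. Without replicate 2 of WT the difference in share was -0.53 points in astrocytes, -1.54 in microglia and -1.19 in the neuron fraction. Without it the edgeR adjusted p was 0.0106 in astrocytes, 0.0202 in microglia and 0.435 in the neuron fraction, with log2 changes of -0.34, -0.59 and -0.44, all under the size limit. The number of features called without it was 1527 in place of 466 in astrocytes and 940 in place of 215 in microglia.

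The share depends on what it is a share of. Reads of tRNA took larger mean shares in KIN glia, at 15.4% ± 1.30 against 9.74% ± 1.43 in microglia and 12.1% ± 0.28 against 10.8% ± 0.57 in astrocytes (KIN against WT, n = 3). When miRNA and tRNA reads were left out of the total, the microglial groups overlapped, at 2.30% ± 0.29 in KIN against 3.37% ± 0.88 in WT (exact permutation p = 0.3). In astrocytes, at 1.72% ± 0.12 against 2.13% ± 0.19, and in the neuron fraction, at 3.98% ± 0.08 against 4.97% ± 0.31, KIN still lay below WT in every library. A KIN effect that differed between fractions was not detected for 18S. The edgeR interaction was -0.20 ± 0.23 for microglia minus astrocytes (adjusted p = 0.954, 0.146% of 8204 features called), 0.07 ± 0.23 for the neuron fraction minus astrocytes (adjusted p = 0.975, 0% called) and 0.27 ± 0.23 for the neuron fraction minus microglia (adjusted p = 0.678, 1.23% called). With 1 library left out at a time, the estimate for the neuron fraction minus astrocytes turned negative in 11 of 12 fits, and that for the neuron fraction minus microglia in 2 of 12.

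Between fractions of 1 genotype the differences of 18S were larger. 18S was higher in the neuron fraction than in astrocytes, by a log2 fold change of 1.18 ± 0.14 in WT (edgeR adjusted p = 0.0018, 28.7% of features called) and of 1.22 ± 0.16 in KIN (adjusted p = 2.15e-08, 46.3% called), and it was called in both. It was 0.78 ± 0.16 higher in microglia than in astrocytes of WT (adjusted p = 0.0035, 31.5% called) and 0.53 ± 0.14 higher in KIN (adjusted p = 0.00862, 35.3% called), below the size limit of 1 in both. The neuron fraction exceeded microglia by 0.60 ± 0.16 in KIN (adjusted p = 0.00358, 53% called), while in WT the estimate was 0.53 ± 0.22 with an adjusted p of 0.101 (28% called). With the replicate number as a block, which applies if it marks a brain, the adjusted p of microglia against astrocytes in KIN was 0.0975 and no longer passed. These comparisons share libraries, and the shares of all features called were high, so the 18S row was 1 of many that differed. With library totals in place of TMM scaling the neuron fraction against microglia in KIN reached 1.07 and was called, and with no filter on low counts the neuron fraction against astrocytes in WT was 0.92 and was not called.

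The pieces counted as piRNAs allow different parts of 18S to be compared. Expressed per 1000 reads of the 18S row, mmu-piR-68453 near the 5′ end kept a narrow range, with group means of 3.26 to 3.87. Its CPM ran with that of the 18S row over the 18 libraries (Pearson r = 0.96 on log2 values, a description over libraries that share fraction and depth). The entries mmu-piR-68887, mmu-piR-68208, mmu-piR-68140 and mmu-piR-57305 had r of 0.95, 0.95, 0.95 and 0.93, while mmu-piR-68019 and mmu-piR-55180 had 0.76 and 0.70. The entry at the 3′ end, mmu-piR-67196, had the lowest of the 8 values, 0.16. For deviations from the group means r was 0.53 to 0.85 in the other 7 and 0.31 in mmu-piR-67196.

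mmu-piR-67196 was most frequent in microglia. Per 1000 reads of the 18S row it had 30.5, 30.5 and 30.9 in WT microglia and 25.4, 58.2 and 51.0 in KIN microglia. It had 9.70, 15.7 and 8.57 in WT astrocytes and 16.9, 15.5 and 16.6 in KIN astrocytes. It had 3.74, 9.74 and 7.48 in the WT neuron fraction and 10.7, 8.59 and 7.42 in the KIN one. Microglia lay above both other fractions in every library of either genotype (exact permutation p = 0.1 for each, the smallest possible for 3 against 3). edgeR called the entry higher in microglia than in astrocytes, by 2.24 ± 0.24 in WT (adjusted p = 6.44e-05) and 2.00 ± 0.28 in KIN (adjusted p = 0.000103), and lower in the neuron fraction than in microglia, with log2 changes of -1.65 ± 0.36 in WT (adjusted p = 0.00793) and -1.75 ± 0.29 in KIN (adjusted p = 2.04e-05). The row of 18S itself was higher in the neuron fraction, so the 2 readouts had opposite order between these fractions.

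mmu-piR-57305, from the middle of 18S, had the other order. Per 1000 reads of the 18S row it had 7.48, 3.72 and 8.33 in the WT neuron fraction and 6.43, 7.60 and 7.87 in the KIN one. It had 2.56, 1.97 and 2.47 in WT astrocytes, 1.34, 1.63 and 1.31 in KIN astrocytes, 1.81, 1.68 and 1.76 in WT microglia and 1.11, 1.07 and 1.04 in KIN microglia. All neuron libraries lay above all glial ones, and KIN lay below WT in every library of both glial fractions. For KIN against WT the exact permutation p was 0.1 in each glial fraction, and 0.467 after adjustment over 42 such tests of the entries. The share of all features with such a pattern on this scale was not computed. edgeR called it higher in the neuron fraction than in astrocytes by 2.68 ± 0.42 in WT (adjusted p = 0.00359) and by 3.57 ± 0.24 in KIN (adjusted p = 6.06e-16). mmu-piR-55180, from bases 295 to 323, was highest in astrocytes relative to the 18S row, with a mean of 13.9 ± 0.32 in WT and 11.6 ± 0.60 in KIN against 7.53 ± 0.03 and 7.06 ± 0.29 in microglia.

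**Figure D4:**
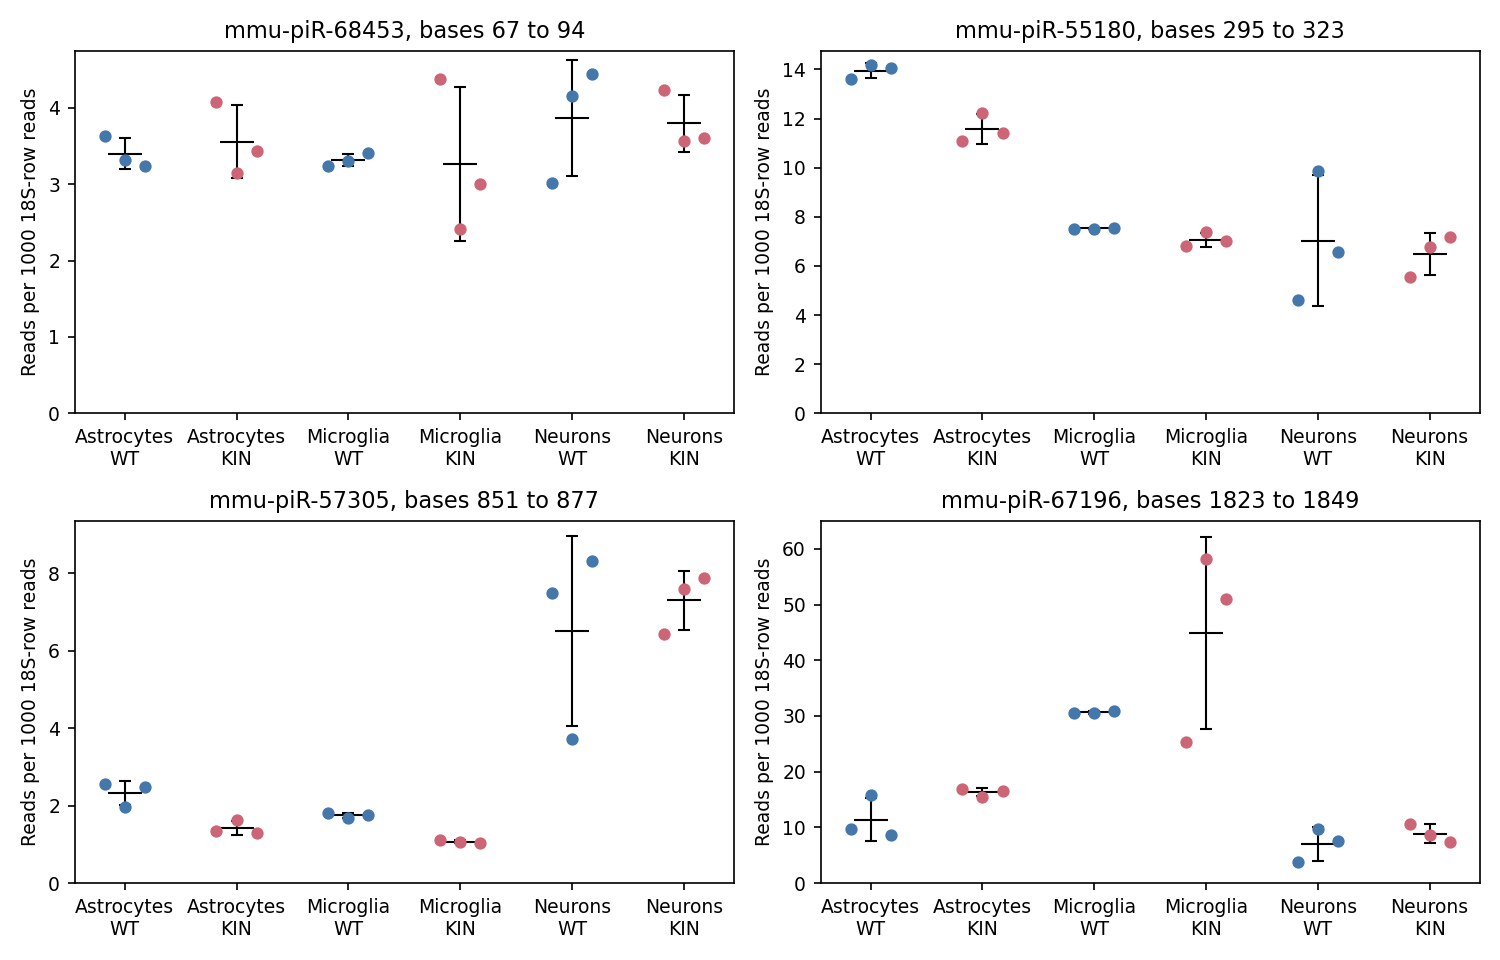
Reads of 4 piRNA entries per 1000 reads of the 18S row in each library, with the mean and SD of the 3 libraries of a group. piR-68453 stays between 2.41 and 4.44, piR-55180 is highest in astrocytes, piR-57305 in the neuron fraction and piR-67196 in microglia.

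Between genotypes the entries mostly pointed down in KIN glia. Of 11 entries tested in microglia 10 had a negative log2 fold change, against 56.2% of all features, and 2 were called, against 4.35%. The entries are not independent, as 5 of the 12 overlap at bases 286 to 323 and 2 at bases 397 to 427. mmu-piR-57305 fell by 1.17 ± 0.25 on the log2 scale (edgeR adjusted p = 0.0365) and mmu-piR-68887 fell by 1.18 ± 0.28 (adjusted p = 0.0473). These 2 calls were lost when replicate 2 or 3 of KIN microglia or replicate 1 or 3 of WT microglia was left out, with 0 entries called, and without replicate 2 of WT 5 were called. In astrocytes 9 of 10 tested entries were negative, against 58.0% of all features, and none was called by edgeR, against 8.18%. The list median was -0.70 against -0.19 for all features in astrocytes, -0.71 against -0.11 in microglia and -0.33 against -0.11 in the neuron fraction. In the neuron fraction 10 of 11 were negative, against 57.6% of all features. None was called there by either tool, and 2 had an unadjusted p of at most 0.05. In astrocytes 6 entries had an unadjusted p of at most 0.05, and DESeq2 called 1. The entry at the 3′ end was the exception in all 3 fractions, with 0.29 ± 0.18, 0.10 ± 0.30 and 0.08 ± 0.33, none of them called (adjusted p = 0.264, 0.897 and 0.977).

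The sum of the 12 entries was a small part of all 18S reads. In astrocytes it was 0.0707% ± 0.0070 of reads in WT and 0.0525% ± 0.0035 in KIN, with every KIN library lower (exact permutation p = 0.1). In microglia it was 0.145% ± 0.042 in WT and 0.110% ± 0.036 in KIN (exact p = 0.3), and in the neuron fraction 0.186% ± 0.024 in WT and 0.160% ± 0.0062 in KIN (exact p = 0.2). With the entry of up to 2 mismatches added, the exact p was 0.1, 0.3 and 0.8 in astrocytes, microglia and the neuron fraction. Without mmu-piR-67196, which was set apart after its values were seen, the sum in microglia was 0.0576% ± 0.018 in WT and 0.0286% ± 0.00023 in KIN, in astrocytes 0.0512% ± 0.011 and 0.0305% ± 0.0018, and in the neuron fraction 0.154% ± 0.026 and 0.128% ± 0.010. Adding the 12 entries to the 18S row left the KIN shares below the WT shares in every library of all 3 fractions.

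The other features that the table types as ribosomal RNA were counted far less. The table held no row named Rn45s, Rn28s1 or Rn5-8s, so the 18S row could not be set against reads of these genes. Of 27 rRNA features 23 had a read, and the leading ones were mt-Rnr2-201 with 185404 and mt-Rnr1-201 with 89374 reads, the large and small rRNA of the mitochondrial ribosome. Unlike 18S, mt-Rnr2-201 was lowest in microglia, at 2164 ± 350 CPM in WT and 1845 ± 241 in KIN, against 4587 ± 219 and 3732 ± 236 in astrocytes and 5415 ± 1139 and 3723 ± 197 in the neuron fraction. mt-Rnr1-201 had log2 changes in KIN of -0.22 ± 0.08, 0.11 ± 0.18 and -0.51 ± 0.23 in astrocytes, microglia and the neuron fraction (edgeR adjusted p = 0.101, 0.798 and 0.917). The 5S-type features Gm23647-201, Gm24089-201 and n-R5s185-201 had 2190, 2169 and 1738 reads and positive estimates in each fraction, between 0.01 and 0.66. No rRNA feature tested was called between KIN and WT in any fraction by edgeR or DESeq2, with 2 of 8, 0 of 12 and 2 of 10 at an unadjusted edgeR p of at most 0.05 in astrocytes, microglia and the neuron fraction. Of the genes listed as linked to ribosomal DNA, the table held only Lars2, with 9 transcripts. Lars2 is a protein-coding gene for a mitochondrial leucyl-tRNA synthetase, so its reads are not a readout of ribosomal DNA. Of the 9 transcripts 3 were tested, and edgeR called none between genotypes. An unadjusted edgeR p of at most 0.05 was found for 2, 3 and 0 of them in astrocytes, microglia and the neuron fraction. DESeq2 called 1 of them in microglia. All 3 were called higher in the neuron fraction than in astrocytes (28.7% of all features called in either direction in WT, 46.3% in KIN) and than in microglia (28% and 53%).

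The small nucleolar RNAs that guide modification of 18S are a second view on its production. These snoRNAs carry a short stretch complementary to 18S, which places the modifying enzyme at its target nucleotide. The list also held the U3 feature Rnu3a-202, and U3 serves the cuts. Of 26 snoRNAs of the list with a reference sequence, 15 (57.7%) held an uninterrupted Watson-Crick match to 18S of 12 or more bases, against 30 of 1527 other snoRNAs (1.96%). The list was made of guides of 18S, so this contrast was set by the choice of list and is not a result of these data. Pairs are shown, each snoRNA stretch above the 18S stretch it complements, because they are the bases by which these guides meet the RNA counted here.
Snord57-201: aactgatttaatgagcc
18S, bases 94 to 110: ggctcattaaatcagtt
Snord14c-201: ccttccttggatgt
18S, bases 465 to 478: acatccaaggaagg
Snord68-201: tctccggaatcg
18S, bases 431 to 442: cgattccggaga
The Snord14c stretch recurs in Snord14d, Snord14e and Snord14a. Such a match is a description of the letters and not a measured contact.

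The guides showed no called KIN difference. All 27 features of the list were tested and none was called between KIN and WT in any fraction by edgeR or DESeq2, with 3, 2 and 1 at an unadjusted edgeR p of at most 0.05. The medians were -0.03, -0.02 and 0.16 in astrocytes, microglia and the neuron fraction against -0.19, -0.11 and -0.11 for all features. Snord57-201 (271569 reads) had log2 changes of 0.11 ± 0.08, -0.03 ± 0.38 and -0.07 ± 0.20, and Snord68-201 had -0.08 ± 0.07, -0.05 ± 0.17 and -0.47 ± 0.32. Between fractions the guides went both ways, with 3 called higher and 4 lower in the neuron fraction than in astrocytes of WT, where 28.7% of all features were called, and 4 higher and 0 lower in KIN, where 46.3% were. Transcripts of small subunit proteins were scarce in these libraries, with 1, 7 and 44 of 100 tested in astrocytes, microglia and the neuron fraction and none called between KIN and WT by edgeR or DESeq2, with 1, 0 and 0 at an unadjusted edgeR p of at most 0.05. In the neuron fraction against astrocytes all 18 tested in WT and 32 of 34 tested in KIN were called higher, against 28.7% and 46.3% of all features called in either direction. As 1 of the 100 passed the filter among astrocyte libraries and 44 among neuron libraries, those tested here passed mainly through the neuron libraries. Their direction was thus largely set by the filter and is a description only.

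Features whose CPM ran most like that of 18S over the 18 libraries were, by Pearson r on log2(CPM + 1), Gm26461-201 (0.97), mmu-piR-67897 (0.97), Snord3b4-202 (0.96), Snord3b3-201 (0.96) and Cenpa-208 (0.96). Snord3b4 and Snord3b3 are copies of U3, the snoRNA that the early cuts around 18S require, and near-identical copies may share reads. Snord3b4-202 had 96.8 ± 7.3 CPM in WT and 78.7 ± 5.8 in KIN astrocytes, 131 ± 14 and 110 ± 15 in microglia, and 259 ± 25 and 192 ± 19 in the neuron fraction. The opposite pattern was led by the tRNA-Thr-TGT-3-2 gene copy (r = -0.97), the tRNA-Thr-TGT-3-1 copy (-0.95) and Mir27b-201 (-0.95). For deviations from the group means these r were weaker, at 0.62, 0.67, 0.67, 0.56 and 0.57 for the 5 most alike and at -0.78, -0.76 and -0.25 for the opposite 3. Mir27b-201 had 40.1 ± 3.8 CPM in WT astrocytes, 11.5 ± 0.53 in WT microglia and 2.07 ± 1.76 in the WT neuron fraction.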

How the data were processed

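Small RNA from 3 magnetically sorted brain cell fractions was sequenced in 18 libraries. The authors trimmed reads with cutadapt 4.6, aligned them with Bowtie2 2.4.4 in local mode in successive rounds (mature miRNA, tRNA genes, piRNA, Ensembl noncoding, then coding transcripts of mm39) and counted placements with HTSeq 2.0.2 without strand or a mapping quality limit. Each later round saw only reads left over from the earlier ones, and the deposited counts are whole reads per feature. Collapsing by molecular identifiers is not stated for these libraries, so intervals cover counting error only. The deposited table also holds the authors' DESeq2 results and 36 other columns per library, which were not used.

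Totals over all features were the depth. Features reaching 5 counts in 2 or more libraries were tested with edgeR 4.0.16 (quasi-likelihood, TMM factors) in R 4.3.3, fitting the 6 libraries of each comparison alone and all 18 for interactions, with Benjamini-Hochberg adjustment over all features tested. The limits for a call were an adjusted p of 0.05 and a change of 1 on the log2 scale. DESeq2 1.42.0, other scalings, no filter, 1 joint fit, a replicate block and left-out libraries were the alternatives, and the code was tested on simulated data. Shares were compared by exact permutation in SciPy 1.17.1. P-values measure the spread between these samples, which may be technical. Fractions were taken in sequence from single brains, but whether a number marks a brain is not stated. Deviations of same-numbered libraries correlated positively between fractions in 9 of 9 pairs in WT (0.020 to 0.28) and 4 of 9 in KIN (-0.12 to 0.079). In 0 of 9 comparisons were all over 0.1, but such values cannot exclude that a number marks a brain. Xist reads of KIN went with the number in each fraction. In WT, replicate 2 had the most in astrocytes and the neuron fraction but not in microglia. The main fits assumed no pairing, and the replicate block is the alternative to them.

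The member and lists were chosen with earlier results of these data known. Named were the 18S row, the 5 next most abundant features, the 5 most and 3 least correlated features with a mean of at least 50 counts (log2 of CPM + 1), up to 10 features matching 18S (the 3 shorter entries were added after their values were seen) and members of the lists. Sequences of piRNA entries came from the deposited table and those of transcripts from GENCODE vM39.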

Additional observations from a re-analysis of the deposited data

How the results depend on the processing

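The KIN estimates of the 18S row stayed negative and uncalled under all alternatives run, as did the KIN difference in its share, but, left-out libraries apart, their adjusted p ranged from 0.0242 (library totals) to 0.92 (no filter) in astrocytes, from 0.0769 to 0.374 in microglia and from 0.809 to 1.00 in neurons. Of the fraction differences, neurons against astrocytes in WT was 0.92 and not called with no filter, and neurons against microglia in KIN was 1.07 and called with library totals. Counts of called features were 159 (1 fit of 18 libraries) in astrocytes, 379 (DESeq2), 426 (no filter), 334 (1 fit of 18 libraries) and 49 (replicate block) in microglia, 75 (no filter) in neurons, and 2674 (1 fit of 18 libraries) for neurons against astrocytes in WT.

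With each library left out in turn, calls ranged from 41 to 1527 (astrocytes), 0 to 940 (microglia) and 0 to 52 (neurons) for KIN against WT, and from 911 to 1940 (neurons against astrocytes, WT) and 867 to 1683 (neurons against microglia, WT). Interactions of the 18S row ranged from -0.31 to -0.09 (microglia minus astrocytes), -0.23 to 0.11 (neurons minus astrocytes) and -0.022 to 0.37 (neurons minus microglia). Called 18S-matching entries numbered 0 to 4 in astrocytes and 0 to 5 in microglia. They numbered 1 with library totals and 1 with DESeq2 in astrocytes, and 1 with library totals in microglia. These alternatives for the entries, and the one with up to 2 mismatches, were added after seeing the data.

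Whether a number marks a brain is not stated. With the replicate block the astrocyte estimate of the 18S row was -0.25 (adjusted p = 0.0446, edgeR), with 1 matching entry called in astrocytes and 0 in microglia. The cause of these changes was not tested. The exact tests of 3 against 3 cannot go below 0.1.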
